A study of Bos taurus with 2 samples.

Results

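Genes of the cell division cycle were examined in the muzzle of 2 HanWoo cows, a native Korean breed, one with a light muzzle and one with a dark muzzle. A list of 60 genes was followed, made up of cyclins and their kinases, kinase inhibitors, DNA replication genes, mitotic genes and the DREAM complex with its subunit LIN37. Genes were chosen by name, and a probe counted as a member where its accession matched one of these symbols in the RefSeq table of cattle genes. Probes were found for 41 of the 60 genes, 91 probes in all, out of 9647 genes and 20587 probes that carried a symbol on the array. The other 19 genes, MKI67, TOP2A, CCNB3, CDC25B, MAD2L1, KIF11, CENPE, CENPF, CCNE1, CDK6, CDKN2A, CDC6, CDT1, MCM2, RRM2, RBL1, E2F1, LIN9 and LIN54, were not analysed here.

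Both animals were female, 30 months old and of the Hanwoo strain, and the labels give the color of the nose tissue as Yellow for the light muzzle and Black for the dark muzzle. No treatment, transgene or allele is given for either cow. Each RNA came from a piece of whole tissue, the front of the muzzle, with several cell types in it. A representative cow of each color was read on 1 one-colour Agilent array, and both arrays lay on the same slide. With 1 array per group there was no replicate check, no test was made, and every difference is one between 2 animals.

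In dividing cells, D-type cyclins with CDK4 and CDK6 and then cyclin E with CDK2 phosphorylate the retinoblastoma family of pocket proteins, which frees E2F factors to switch on replication genes. In resting cells the DREAM complex, made of a pocket protein, E2F4 with its DP partner and the MuvB core of LIN9, LIN37, LIN52, LIN54 and RBBP4, holds both replication and mitotic genes silent. In cycling cells the MuvB core leaves the pocket protein and binds MYBL2 and later FOXM1, and mitotic genes are then switched on. In stratified epithelium such as the skin of the muzzle, division takes place mainly in the basal layer.

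Levels are log2 processed intensities from which the 75th percentile of each array was subtracted, so that 0 is an intensity of 1144 on the light-muzzle array and of 1137 on the dark-muzzle array. Log2 ratios are given as dark minus light, so that positive values stand for higher expression in the dark muzzle. The ratio of a gene is the mean over its probes detected (well above background) on both arrays, given with the SD between those probes where there were several. Of the 91 probes, 85 were well above background on both arrays, 3 only on the dark-muzzle array, 1 only on the light-muzzle array and 2 on neither. For a probe detected on 1 array, the undetected side was put at the lowest level of any detected probe, and the ratio is then a bound. That level was -5.78 on the light-muzzle and -5.81 on the dark-muzzle array. Where the undetected level was itself higher, it was used as read, and the ratio is not a strict bound. Each gene with a probe had at least 1 probe measured on both arrays. The error that the scanner software assigned to the 85 measured ratios had a median of 0.21 on the log2 scale and lay between 0.20 and 0.43. It covers the reading of a spot and not the spread between animals. The median SD between probes of a gene was 0.25 for the 27 cell cycle genes with several measured probes, LIN37 apart, and 0.17 over all 5363 such genes.

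Detected spots made up 78.8% of all noncontrol spots in the light muzzle and 81.9% in the dark muzzle, with 0 saturated spots. Log2 ratios of the 8 detected spike-in transcripts lay from -0.38 to 0.0063. Of the basal keratinocyte genes, KRT5 had levels of 6.32 in the light and 5.80 in the dark muzzle and KRT14 levels of 7.52 and 7.12, all well above background. KRT15 of the same list went the other way, at a ratio of 1.75, and 4 of 4 genes of the layers above had ratios above 0. Muscle transcripts were present in both animals as well. All 6 measured muscle genes passed 2-fold toward the dark-muzzle cow, against 9.86% of all genes, with a median ratio of 2.95. The median of 7 serous gland genes was -2.50, with 4 of them past 2-fold toward the light-muzzle cow, against 6.47% of all genes. In contrast, LPO (0.57), LYZ (0.40) and BPIFA1 (1.29) had ratios above 0.

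Most cell cycle genes differed by less than 2-fold between the cows, and the ratios of the 15 measured mitotic genes were all above 0 while those of the 3 D-type cyclins were all below 0. LIN37 was set aside because its 2 probes went opposite ways. Of the 40 other genes, UBE2C and CDK1 were higher in the dark-muzzle cow by 2-fold or more, CCND1 was lower by 2-fold or more, and 37 lay within 2-fold. Over all 8914 genes with a ratio, 9.86% were at least 2-fold higher and 6.47% at least 2-fold lower, or 16.3% past 2-fold in all. A log2 ratio above 0 was found for 30 of the 40 genes and for 55.2% of all genes. The median ratio was 0.21 over the 40 genes and 0.065 over all genes. Counted by probe, 7 of the 89 probes with a ratio were at least 2-fold higher and 3 at least 2-fold lower, against 9.76% and 7.17% of all probes. Ratios above 0 were found for 60 of these probes and below 0 for 29, against 52.1% and 47.9% of all probes. At 1.5-fold, 25 probes were higher, against 19.7%, and 5 were lower, against 15.1%. In whole tissue, fewer cells of a type and less RNA per cell cannot be told apart.

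**Figure D1:**
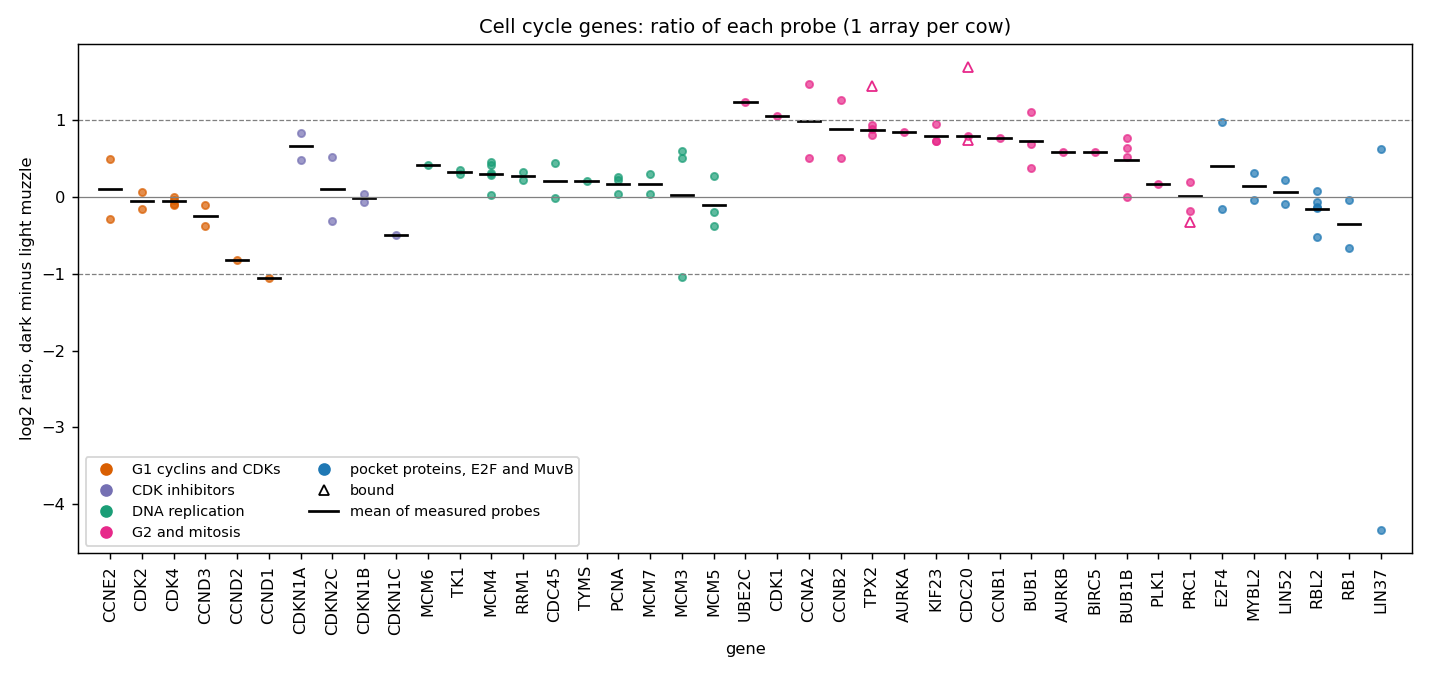
Log2 ratio (dark minus light muzzle, y axis) of each probe of the 41 cell cycle genes (x axis, grouped by role). Filled points are probes well above background on both arrays. Open triangles (labelled bound) are probes of CDC20, TPX2 and PRC1 detected on 1 array. Of these, the higher for CDC20 is a lower bound, and the others use the undetected level as read. Black bars are the mean of the measured probes of a gene, not drawn for LIN37, and dashed lines mark 2-fold. The mitotic genes lie above 0, CCND1 and CCND2 lie lowest among the G1 genes, and the LIN37 probes are at 0.63 and -4.34.

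Mitotic genes made up the class with the highest median. All 15 measured genes of G2 and mitosis had a ratio above 0, from 0.0083 for PRC1 to 1.24 for UBE2C, with a median of 0.80. Of the 15 genes, 11 were higher by 1.5-fold or more, against 19.8% of all genes. By probe, 26 of 27 measured probes had ratios of at least 0.16 or lay just above 0, and the exception was a probe of PRC1 at -0.18. UBE2C and CDK1 passed 2-fold, 2 of the 15 genes, against 9.86% of all genes.

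UBE2C is the ubiquitin-conjugating enzyme of the anaphase-promoting complex. Its probe had intensities of 333 (light) and 782 (dark), which are levels of -1.78 and -0.54 and a fold of 2.36. CDK1, the kinase that drives entry into mitosis, had a probe at 101 in the light and 208 in the dark muzzle, levels of -3.50 and -2.45 and a fold of 2.08. Both ratios were larger than the error of the software, which was 0.21 for each. The cyclins that pair with CDK1 were higher by somewhat less.

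CCNB1 had levels of -3.29 in the light and -2.52 in the dark muzzle, a ratio of 0.77 from 1 probe. CCNB2 had a ratio of 0.88 ± 0.53 (SD, n = 2 probes), with its probes at 0.51 and 1.26. CCNA2, the cyclin of S phase and G2, had a ratio of 0.99 ± 0.68 (SD, n = 2 probes), from probes at 0.51 and 1.47. In both genes with a pair of probes, the probe with the larger ratio was the dimmer one, at a level of -5.29 for CCNB2 and -5.19 for CCNA2 in the light muzzle, and the brightest probe of each gave 0.51.

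The mitotic kinases and spindle genes lay close together. AURKA, a kinase of the spindle poles, had a ratio of 0.84, from levels of -3.10 and -2.26. AURKB, the kinase of the chromosomal passenger complex, had one of 0.59, from -3.58 and -2.99. Another probe of each was above background in neither cow. BIRC5, the survivin subunit of the same complex, was at -3.20 in the light and -2.62 in the dark muzzle, a ratio of 0.58. TPX2, which brings AURKA to spindle microtubules, had a ratio of 0.88 ± 0.068 (SD, n = 3 probes) and levels of -2.34 and -1.46. A further probe of TPX2, detected in the dark muzzle alone, was 2.71-fold higher there against its undetected light level of -5.42. KIF23, a kinesin of the central spindle, had a ratio of 0.80 ± 0.13 (SD, n = 3 probes), with all its probes between 0.73 and 0.95 and mean levels of -3.29 and -2.49. The ratios of these genes lay between 0.58 and 0.88, and the probes of TPX2 and KIF23 differed less from each other than from 0.

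CDC20, the activator of the anaphase-promoting complex, had a ratio of 0.80 from the probe measured in both cows, at intensities of 204 and 352. Its other probes were above background only in the dark muzzle. The brighter of them there was at least 3.23-fold higher, and the other was 1.67-fold higher against its undetected light level of -5.77. BUB1, a kinase of the spindle checkpoint, had a ratio of 0.73 ± 0.36 (SD, n = 3 probes). The related BUB1B had one of 0.48 ± 0.34 (SD, n = 4 probes), with 3 probes between 0.52 and 0.77 and the dimmest, at a level of -5.60 in both cows, at 4.03e-05. All of these checkpoint genes were on the higher side in the dark muzzle.

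PLK1 and PRC1 differed little. PLK1, the polo kinase of mitosis, had levels of 0.68 in the light and 0.85 in the dark muzzle, a ratio of 0.16 that was smaller than the software's error of 0.20. PRC1, a microtubule bundler of the central spindle, had mean levels of -1.02 and -1.01 and a ratio of 0.0083 ± 0.27 (SD, n = 2 probes), from probes at -0.18 and 0.20. The remaining probe of PRC1, detected in the light muzzle alone, was 1.26-fold higher there against its undetected dark level of -5.79.

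Most of the mitotic probes were dim. Of the 27 measured probes 24 had a mean level below -1, and they ranged from -5.60 to 0.77. Over all probes in 10 bands of mean level the median log2 ratio lay between -0.059 and 0.13. The highest medians were in the dimmest bands, 0.13 for levels from -5 to -4 and 0.067 for those from -9 to -5. Within genes, the dimmest measured probe had a higher ratio than the brightest in 18 of 27 cell cycle genes, by a median of 0.22. The same held for 68.5% of all 5363 genes with several measured probes, by a median of 0.14. By the brightest probe of each gene the median of the mitotic class was 0.64. The part of low intensity in the mitotic ratios was not tested. After loess normalization, which removes a trend of the ratio with the level, the median of the class was 0.78. With normexp background correction, which adds an offset to every signal and draws the ratios of dim probes toward 0, it was 0.49.

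**Figure D2:**
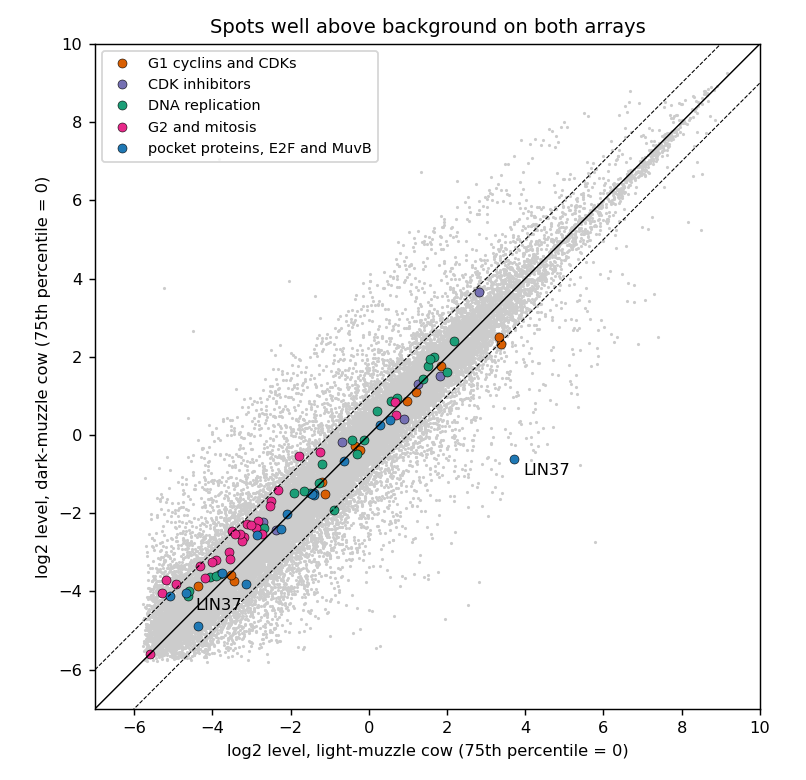
Log2 level in the light muzzle (x axis) against the dark muzzle (y axis) for spots well above background on both arrays. Grey points are all noncontrol spots, coloured points the probes of cell cycle genes by role, the solid line marks equal levels and the dashed lines 2-fold. Mitotic probes sit above the solid line at low levels, and 1 probe of LIN37 lies far below it, at 3.72 in the light and -0.62 in the dark muzzle.

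DNA replication genes were nearer to 0. Of 10 measured genes 9 had ratios above 0, against 55.2% of all genes. These 9 ran from 0.023 for MCM3 to 0.42 for MCM6, and MCM5 was at -0.098. The median was 0.21 and none reached 1.5-fold by the mean of its probes, against 19.8% of all genes higher and 13.6% lower. By the brightest probe of each gene, MCM3 (-1.04), MCM5 (-0.37) and CDC45 (-0.017) were below 0, and MCM3 was past 2-fold. PCNA, the sliding clamp of DNA polymerase, had a ratio of 0.18 ± 0.12 (SD, n = 3 probes), with levels of -0.47 and -0.30. RRM1, the large subunit of ribonucleotide reductase, had one of 0.27 ± 0.070 (SD, n = 2 probes). TK1, thymidine kinase, had one of 0.33 ± 0.040 (SD, n = 2 probes), and TYMS, thymidylate synthase, one of 0.21 from 1 probe. Probes of these nucleotide and clamp genes were all above 0, by 0.042 to 0.36.

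The MCM genes encode the subunits of the replicative helicase. MCM4 had a ratio of 0.30 ± 0.17 (SD, n = 5 probes) with every probe above 0, MCM6 had levels of -1.90 and -1.48, and MCM7 had a ratio of 0.17 ± 0.18 (SD, n = 2 probes). MCM5 had levels of -0.71 and -0.80 and a ratio of -0.098 ± 0.33 (SD, n = 3 probes), and its probes went both ways, from -0.37 to 0.27. MCM3 had a mean of 0.023 ± 0.92 (SD, n = 3 probes), and its probes disagreed. The brightest had intensities of 620 in the light and 301 in the dark muzzle, a ratio of -1.04, while the others, at intensities of 46.2 and 47.6 in the light and 65.3 and 71.5 in the dark muzzle, had ratios of 0.51 and 0.59. No direction can be given for MCM3. CDC45, which joins the helicase at origins, had a ratio of 0.21 ± 0.33 (SD, n = 2 probes) with 1 probe at -0.017.

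The D-type cyclins, which link growth signals to the start of the cycle, all had ratios below 0, and CCND1 alone passed 2-fold. CCND1, cyclin D1, had intensities of 11996 (light) and 5756 (dark), which are levels of 3.39 and 2.34, and was 2.07-fold lower in the dark-muzzle cow. CCND2 had levels of 3.33 and 2.51 and was 1.76-fold lower. CCND3 had levels of 0.37 and 0.12 and a ratio of -0.24 ± 0.20 (SD, n = 2 probes), with both probes below 0. Its brighter probe had a ratio of -0.10, smaller in size than the software's error of 0.20. The ratios of CCND1 and CCND2 each came from 1 bright probe, were larger than the software's error of 0.20 and stayed between -1.16 and -1.05 for CCND1 and between -0.91 and -0.81 for CCND2 under every other normalization, background correction and filter that was tried. The share of all genes at least 1.5-fold lower was 13.6%, and CCND1 and CCND2 were the cell cycle genes in that range.

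The kinases of G1 did not share the difference seen for CCND1 and CCND2. CDK4, a partner of the D-type cyclins, had a ratio of -0.057 ± 0.045 (SD, n = 4 probes), with levels of -0.64 and -0.70. CDK2, at levels of -0.29 and -0.34, had one of -0.046 ± 0.16 (SD, n = 2 probes). CCNE2, an E-type cyclin and partner of CDK2, had levels of -3.90 and -3.80 and a ratio of 0.11 ± 0.55 (SD, n = 2 probes), from probes at -0.28 and 0.50. The differences in these 3 genes were smaller than the spread between their probes or the error of the software. The median over the 6 measured G1 genes was -0.15, with 5 of them below 0, against 44.8% of all genes.

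The CDK inhibitors went both ways. CDKN1A, the p21 protein that p53 induces, was higher in the dark muzzle, with mean levels of 0.07 and 0.73 and a ratio of 0.66 ± 0.25 (SD, n = 2 probes). Its brighter probe had intensities of 8137 (light) and 14465 (dark), a fold of 1.79, and the other had 177 and 246. CDKN1C, the p57 protein, was lower, with levels of 0.90 and 0.41 and a ratio of -0.49 from 1 probe. CDKN1B, the p27 protein, had levels of -0.55 and -0.57 and a ratio of -0.015 ± 0.072 (SD, n = 2 probes). CDKN2C, an inhibitor of CDK4 and CDK6, had levels of 0.57 and 0.67 and a ratio of 0.10 ± 0.58 (SD, n = 2 probes), with its probes at -0.31 and 0.52. Of the 4 measured inhibitors CDKN1A was the one past 1.5-fold.

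The pocket proteins and other DREAM genes outside LIN37 differed by less than 1.5-fold. RB1, the retinoblastoma protein, had levels of -1.42 and -1.78 and a ratio of -0.35 ± 0.45 (SD, n = 2 probes), from probes at -0.67 and -0.037. RBL2, the p130 protein and the usual pocket protein of DREAM, had levels of -2.31 and -2.47 and a ratio of -0.16 ± 0.22 (SD, n = 5 probes), with 4 probes below 0. E2F4, the E2F of the repressive complex, had mean levels of -2.27 and -1.86 and a mean ratio of 0.41 ± 0.80 (SD, n = 2 probes), which joined a bright probe at -0.15 and a dim one at 0.97, so no direction can be given. LIN52, the MuvB subunit that binds the pocket protein, had levels of -2.58 and -2.51 and a ratio of 0.065 ± 0.23 (SD, n = 2 probes). MYBL2, which takes the place of the pocket protein in cycling cells, had levels of -1.75 and -1.61 and a ratio of 0.14 ± 0.26 (SD, n = 2 probes). In 4 of these 5 genes probes lay on both sides of 0, the exception being RB1.

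LIN37 was the member with the largest difference between the cows, and its probes disagreed in direction. The accession of both probes is NM_001076026. Probe A_73_P280906 had intensities of 15075 (light) and 742 (dark), levels of 3.72 and -0.62, and was 20.2-fold lower in the dark-muzzle cow. Probe A_73_P030766 had intensities of 44.8 and 68.7, levels of -4.67 and -4.05, and was 1.54-fold higher there. Both were well above background in both cows. The difference between the ratios, -4.34 and 0.63, was far larger than the software's errors of 0.20 and 0.26. No direction can be given for LIN37 as a gene.

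Among the 33451 probes measured on both arrays, 41 had a ratio lower than that of A_73_P280906. For A_73_P030766 the number with a lower ratio was 28060. None of the spots of either LIN37 probe was flagged as uneven, as an outlier or as saturated. The local background beside A_73_P280906 was 24.5 in the light and 18 in the dark muzzle. The 10 spots nearest to it that were above background on both arrays had a median ratio of -0.26 and a range from -1.96 to 0.29, so that none of them came near its ratio. The 10 such spots nearest to A_73_P030766 had a median of -0.34 and a range from -1.62 to 1.01, which takes in its ratio. Under the other normalizations, filters and background correction the ratio of A_73_P280906 lay between -4.44 and -4.21, and that of A_73_P030766 between 0.41 and 0.63.

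The genes next to LIN37 in the RefSeq table did not show a difference of that size. Of the 3 protein-coding genes on each side, 4 had probes. PSENEN, a subunit of gamma-secretase, had levels of 3.28 and 3.68 and a ratio of 0.40. U2AF1L4, a splicing factor, had one of 0.50, and IGFLR1, a receptor of the IGF-like family, one of -0.21. HSPB6, a small heat shock protein abundant in muscle, had probes at 1.41 and -0.12. PSENEN and HSPB6 are the nearest on either side. Of the probes in this stretch A_73_P280906 alone was lower by 2-fold or more.

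**Figure D3:**
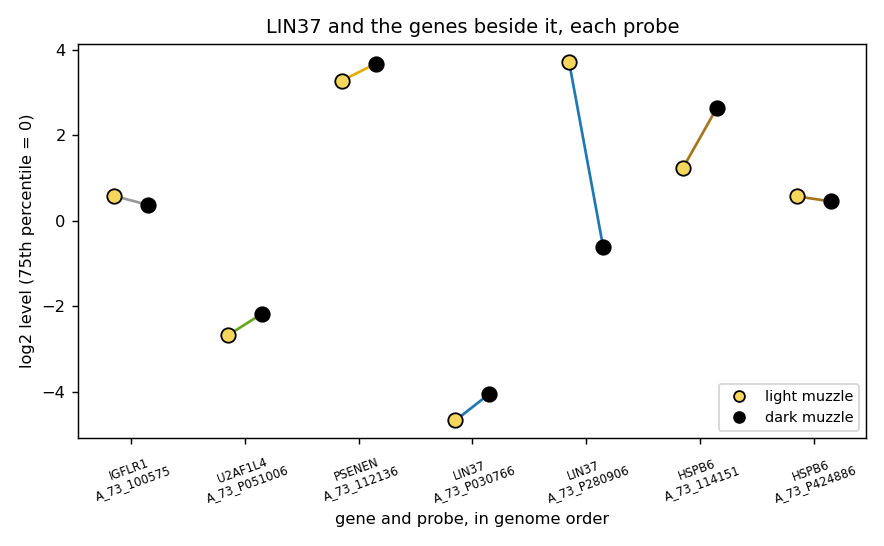
Log2 level (y axis) of each probe of LIN37 and of the measured genes beside it (x axis, in genome order), in the light-muzzle cow (yellow) and the dark-muzzle cow (black). A line joins the levels of a probe, and levels of different probes are not comparable. LIN37 probe A_73_P280906 goes from 3.72 to -0.62, while the other LIN37 probe goes from -4.67 to -4.05.

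Further genes of the pathway were read from wider lists, which were chosen with earlier results of these data known and so are no independent check. Of 23 measured mitotic genes outside the 60, 20 had ratios above 0, against 55.2% of all genes, and 11 were at least 1.5-fold higher, against 19.8%. Their median was 0.57. SPC25, of the NDC80 kinetochore complex, had levels of -5.26 and -4.03 and a ratio of 1.23, and DLGAP5, a spindle microtubule protein, had levels of -3.37 and -2.30 and a ratio of 1.07. These 2 of 23 were the genes of the list at least 2-fold higher, against 9.86% of all genes. NUSAP1, which bundles spindle microtubules, had a ratio of 0.95 ± 0.065 (SD, n = 2 probes). NCAPG, a condensin subunit, went the other way, with levels of -0.64 and -2.49, a ratio of -1.85 ± 0.15 (SD, n = 2 probes) and a fold of 3.61 lower in the dark muzzle. It was the 1 gene of the list at least 2-fold lower, against 6.47% of all genes. The 2 further genes below 0 were KIF2C and NCAPH, whose probes went both ways.

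Replication genes outside the 60 divided evenly, with 13 of 24 above 0, against 55.2% of all genes, and a median of 0.062. GINS4, a GINS subunit of the replicative helicase, was the gene of the list past 2-fold, against 16.3% of all genes. It had levels of -3.23 and -4.64 and a ratio of -1.41 from 1 measured probe. The other measured GINS genes, which were chosen after their values were seen, were GINS1 at -0.91 ± 0.19 (SD, n = 3 probes) and GINS3 at -0.65 from 1 probe, and GINS2 was not analysed here. PRIM1, a primase subunit, at levels of -4.47 and -3.84, was highest of the list at 0.63 ± 0.14 (SD, n = 3 probes), and GMNN, geminin, the inhibitor of origin licensing, had 0.60 ± 0.16 (SD, n = 2 probes). In the list of checkpoint and anaphase-promoting complex genes none was past 2-fold, against 16.3% of all genes. The list had 9 of 17 above 0, against 55.2% of all genes, and a median of 0.11. It ran from ANAPC10, a subunit of that complex, at -0.63 to CDK7, the CDK-activating kinase, at 0.88 ± 0.088 (SD, n = 3 probes). ANAPC10 had levels of 0.05 and -0.58, and CDK7 levels of -1.35 and -0.47. In the list of other E2F, DP and DREAM genes, E2F6, a repressive E2F, had levels of -2.47 and -2.26 and a ratio of 0.22. TFDP1, a DP partner of E2F, had levels of 0.58 and 0.45 and a ratio of -0.13. RBBP4 lay between them at 0.084, and the probe of MYBL1 was above background in neither cow.

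**Figure D4:**
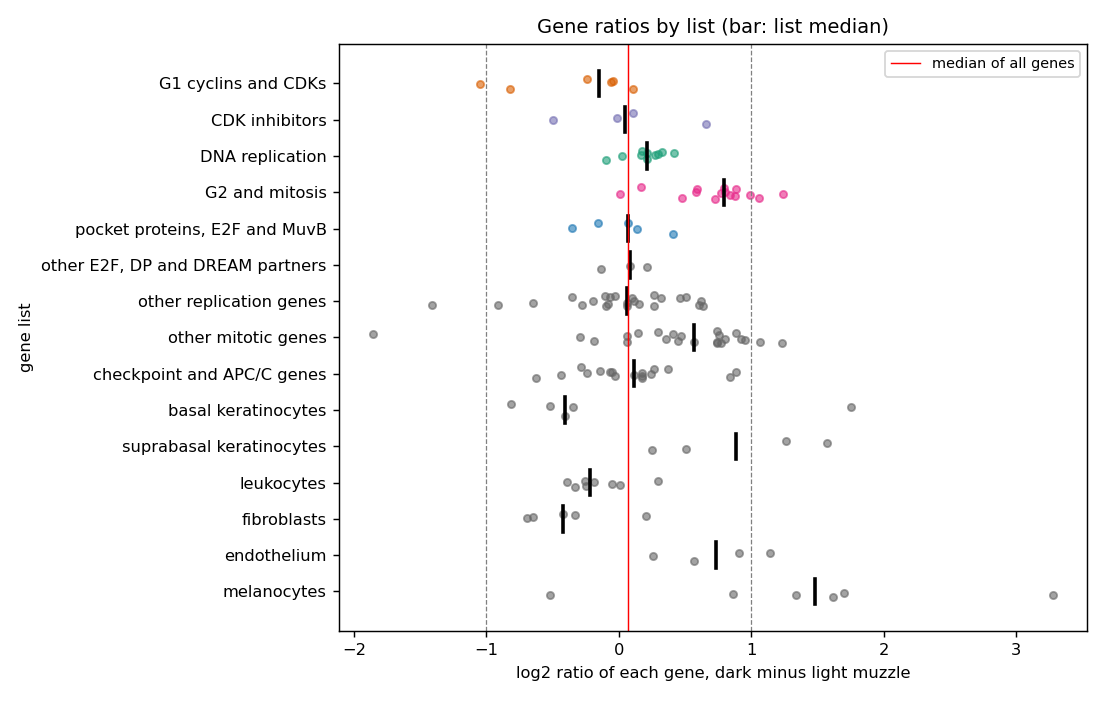
Log2 ratio of each gene (x axis, dark minus light muzzle) by gene list (y axis). Points are genes, black bars list medians, the red line the median of all genes (0.065) and dashed lines 2-fold, and LIN37, muscle and gland genes are left out. The 2 mitotic lists have medians of 0.80 and 0.57, while the other cell cycle lists lie between -0.15 and 0.21.

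Markers of the cell types in the tissue had ratios on both sides of 0. Of all genes, 55.2% had a ratio above 0 and 44.8% below 0, with a median of 0.065. Basal keratinocyte genes, from the layer where cells divide, had 4 of 5 genes below 0 and a median of -0.41, from -0.81 for COL17A1 to 1.75 for KRT15. Their summed intensity was 838243 in the light and 852088 in the dark muzzle. Genes of the layers above had 4 of 4 above 0 and a median of 0.88, and their summed intensity was 340245 in the light and 724904 in the dark muzzle. Leukocyte genes had 6 of 8 below 0, a median of -0.22, and summed intensities of 15211 and 12892, and none of them reached 1.5-fold. Fibroblast genes had 4 of 5 below 0 and a median of -0.42, endothelial genes 4 of 4 above 0 and a median of 0.74, melanocyte genes 5 of 6 above 0 and a median of 1.48, with TYRP1 as a bound, since none of its probes was detected in the light muzzle. The part of any of these cell types in the cell cycle ratios was not tested.

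The medians of the classes kept their order at both ends under the other processing choices. The mitotic class was highest, with medians between 0.49 and 0.88, and the G1 class lowest, with medians between -0.22 and -0.12. The replication class lay between 0.19 and 0.22.

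**Figure D5:**
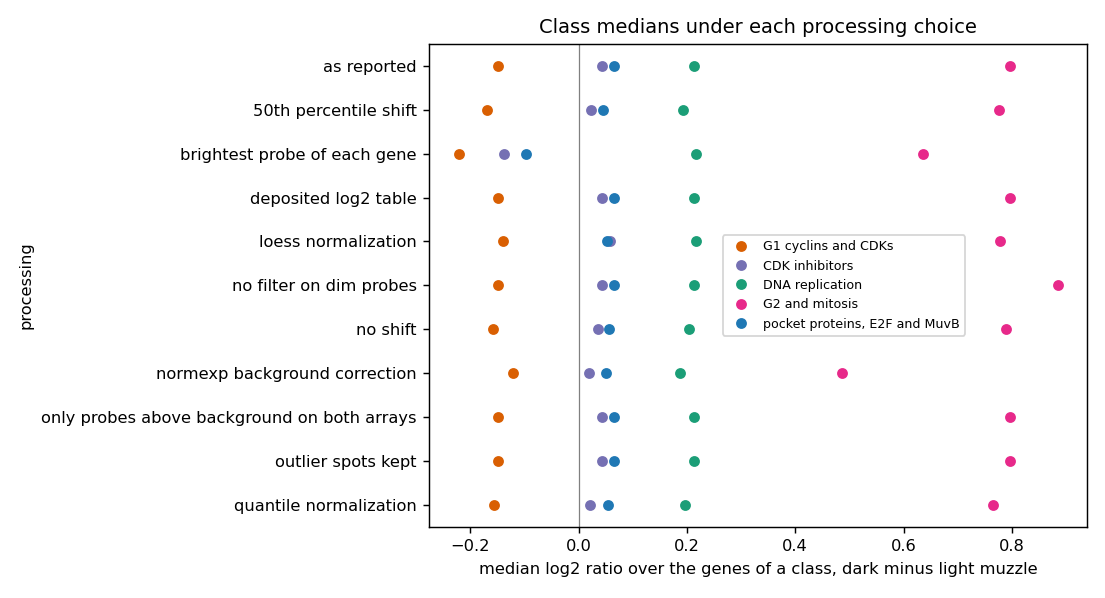
Median log2 ratio over the genes of each class (x axis, dark minus light muzzle) under each processing choice (y axis). The mitotic class stays at the right, lowest at 0.49 with normexp background correction, and the G1 class stays at the left, between -0.22 and -0.12.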

How the data were processed

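RNA of 1 light-muzzle and 1 dark-muzzle cow was compared on 1 Agilent array each. The authors deposited, for each array, the spot intensities of Agilent Feature Extraction 10.7.3.1, in which the processed signal is background-subtracted. They also deposited a table of log2 values. The methods name Gene Spring for normalization, without its settings. For the cell cycle probes it differed by at most 0.00021 from the levels computed here, its column medians were -2.47 (light) and -2.45 (dark), and it served as an alternative.

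Here the log2 signal of each of 43803 noncontrol spots had the 75th percentile of its array subtracted. The 13 spots that each array marks as outliers were dropped, and repeated spots were averaged to 43639 probes. A symbol was given where the accession matched a transcript of cattle RefSeq on ARS-UCD2.0 (20587 probes). The array was designed on another assembly, so no coordinates are given. No sequence was printed, since the files used here hold none. Thresholds were 2-fold and 1.5-fold. With 1 array per group no test was made, and precision is limited by the number of arrays.

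The genes, their classes and the lists were chosen with earlier results of these data known. By rule, both levels were given for the probes of LIN37, for PCNA and CDK1, for the G1, inhibitor and DREAM genes, for genes past 2-fold and for the highest and lowest of each class or pathway list. Levels given for further genes were added after their values were seen. Alternatives were quantile and loess (span 0.3) normalization, a 50th percentile shift or none, normexp (offset 50) on the median pixel signals, no dim filter, only probes above background on both arrays, outliers kept, the deposited table, the brightest probe per gene, and thresholds of 1.5-fold and 3-fold. Python 3.11.15, numpy 2.4.6, pandas 2.3.3, R 4.3.3 and limma 3.58.1 were used. The counting code was run on simulated data made from the light-muzzle array, with little noise and planted shifts well past the 2-fold threshold. That run checks the code and not the precision of the ratios.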

Additional observations from a re-analysis of the deposited data

How the results depend on the processing

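A value was taken to have moved where it shifted by more than 0.17 on the log2 scale, the median SD between probes of a gene, and a count where it changed by more than 1.5 times. With normexp background correction the median of the mitotic class went from 0.80 to 0.49, the dimmer LIN37 probe from 0.63 to 0.41, and 1 gene (UBE2C) and 1 probe were at least 2-fold higher, in place of 2 and 7. Over all genes, 635 of 8911 were then at least 2-fold higher, in place of 879 of 8914. Without a filter on dim probes 6 genes were at least 2-fold higher, the added ones being AURKA, AURKB, CDC20 and TPX2. Over all genes the count without that filter was 1173 of 9647. With the brightest probe of each gene the medians of the CDK inhibitors and of the other E2F, DP and DREAM genes became -0.14 and -0.13. With that choice 2 genes were at least 2-fold lower in place of 1, the added one being MCM3. Over all 8914 genes, 673 were at least 2-fold lower by the brightest probe, in place of 577. Counting LIN37 by the mean of its probes also gave 2 lower genes. At 1.5-fold 12 genes and 25 probes were higher and 2 genes and 5 probes lower, and at 3-fold 0 genes and 1 probe were higher and 0 genes and 1 probe lower. Of all genes, 19.8% were at least 1.5-fold higher and 13.6% lower, and the shares at 3-fold were not counted. UBE2C, CDK1 and CCND1 kept their sign throughout, while PRC1, MCM3, E2F4, CCNE2, CDC45, CDKN1B, CDKN2C, LIN52 and MYBL2 changed sign in at least 1 alternative. Mitotic genes above 0 numbered 14 or 15 of 15 in every alternative. The remaining 149 values of counts, list medians and LIN37 probes did not move by these limits. Some of them could hardly move, since the deposited table differed by at most 0.00021 and the filters left both LIN37 probes unchanged. No paired analysis was possible because each group held 1 array. Naming probes by a gene name column was not run, as the array files used here carry accessions only, and normexp used the median pixel signal since the mean planned for it was not in these files. Mitotic probes near background limit the precision of their ratios.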

Other observations

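Within a gene, the dimmest and the brightest probe often gave different ratios. In 18 of 27 cell cycle genes with several measured probes, LIN37 apart, the dimmest probe had the higher ratio (dark minus light muzzle), by a median difference of 0.22 on the log2 scale. Over all 5363 genes with several measured probes the same held for 68.5%, with a median difference of 0.14. In 15 of the 27 cell cycle genes all measured probes lay on the same side of 0, among them CCNA2, CCNB2, BUB1, KIF23, TPX2, MCM4, TK1, RRM1 and CDK4. The same count was not made over all genes, so no trait of cell cycle genes is read from it.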
